A study of Mus musculus with 6 samples.

Results

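The E2F and Rb family was described here by 10 genes, the transcription factor genes *E2f1* to *E2f8* and the pocket protein genes *Rb1* and *Rbl1*. They were chosen by name from the 54532 genes of the count table, and each name matched 1 gene. All 10 were among the 17505 genes tested. The data are bulk RNA-seq libraries of the mouse cerebellum at postnatal day 1, with 3 control and 3 mutant samples. Control animals were Cre-negative and of genotype Tox3f/f, and mutant animals were Nestin-cre;Tox3f/f. Both groups therefore carried floxed *Tox3*, derived from a targeted KOMP allele by FLP recombination, and only the mutants carried the B6.Cg-Tg(Nes-cre)1Kln transgene, which drives Cre recombinase in the nervous system. The effect of the transgene and that of the deletion cannot be told apart in this design. Both sexes were present in both groups. Libraries of a group thus did not all come from the same animal. Whether each library came from a single animal is not stated in the sources used here. The p-values therefore measure the spread between these libraries, which may be technical in part.

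E2F proteins bind DNA near the start of genes needed for S phase, mostly as dimers with a DP partner. In resting cells the pocket proteins Rb, p107 and p130 bind E2Fs and hold these genes silent, and cyclin-dependent kinases release them by phosphorylating the pocket proteins. E2f1, E2f2 and E2f3 are the activators, E2f4, E2f5 and E2f6 repress in complexes with pocket or Polycomb proteins, and the atypical E2f7 and E2f8 repress without a DP partner. In the newborn cerebellum the largest pool of dividing cells is that of the granule neuron progenitors (GNPs), which lie in the external granule layer.

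The 6 libraries held between 15391854 and 17178478 counts on genes. Values are given as CPM, in which the count of a gene is divided by the library total after TMM scaling, and compare 1 gene between libraries. FPKM, which also divides by gene length, was used to compare levels of different genes. Gene positions are those of the count table, on mm10 (GRCm38). Genes count here as downregulated or upregulated where edgeR's quasi-likelihood test gave a p under 0.01, after Benjamini-Hochberg adjustment over all genes tested, together with a log2 fold change of more than 0.5 in size. The targeted gene *Tox3* did not check the labels. Its count covers the whole gene model, and the deleted part is not given in the sources used here. This count does not by itself show whether the deletion took place. The level of *Tox3* was 63.9 ± 0.760 CPM in the control and 59.3 ± 3.95 CPM in the mutant group (SD, n = 3). The groups overlapped, and the log2 fold change was −0.11 (edgeR's quasi-likelihood test, adjusted p = 0.252). Each direction below is therefore that of the mutant label relative to the control label.

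Of the 10 family members, 5 were downregulated and 0 upregulated. The downregulated genes were *E2f1*, *E2f2*, *E2f7*, *E2f8* and *Rbl1*, and their log2 fold changes ran from −0.54 to −1.17. Among all genes tested, 3.63% were downregulated and 3.03% upregulated. At an unadjusted p under 0.05, 8 members were lower and 0 higher, beside 19.0% and 18.2% of all genes tested, and DESeq2 also called 0 members upregulated. In 8 of the 10 members every mutant library lay below every control library, a pattern found in 20.1% of all genes tested, while the opposite pattern was found in 20.4% of these genes and in 0 members. The median log2 fold change was −0.44 over the members and −0.01 over all genes tested. The downregulated members included activators, atypical repressors and a pocket protein, and none of the canonical repressors *E2f4*, *E2f5* and *E2f6*. In bulk RNA, fewer cells of a type and less RNA per cell cannot be told apart, and this holds for every difference given here.

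**Figure D1:**
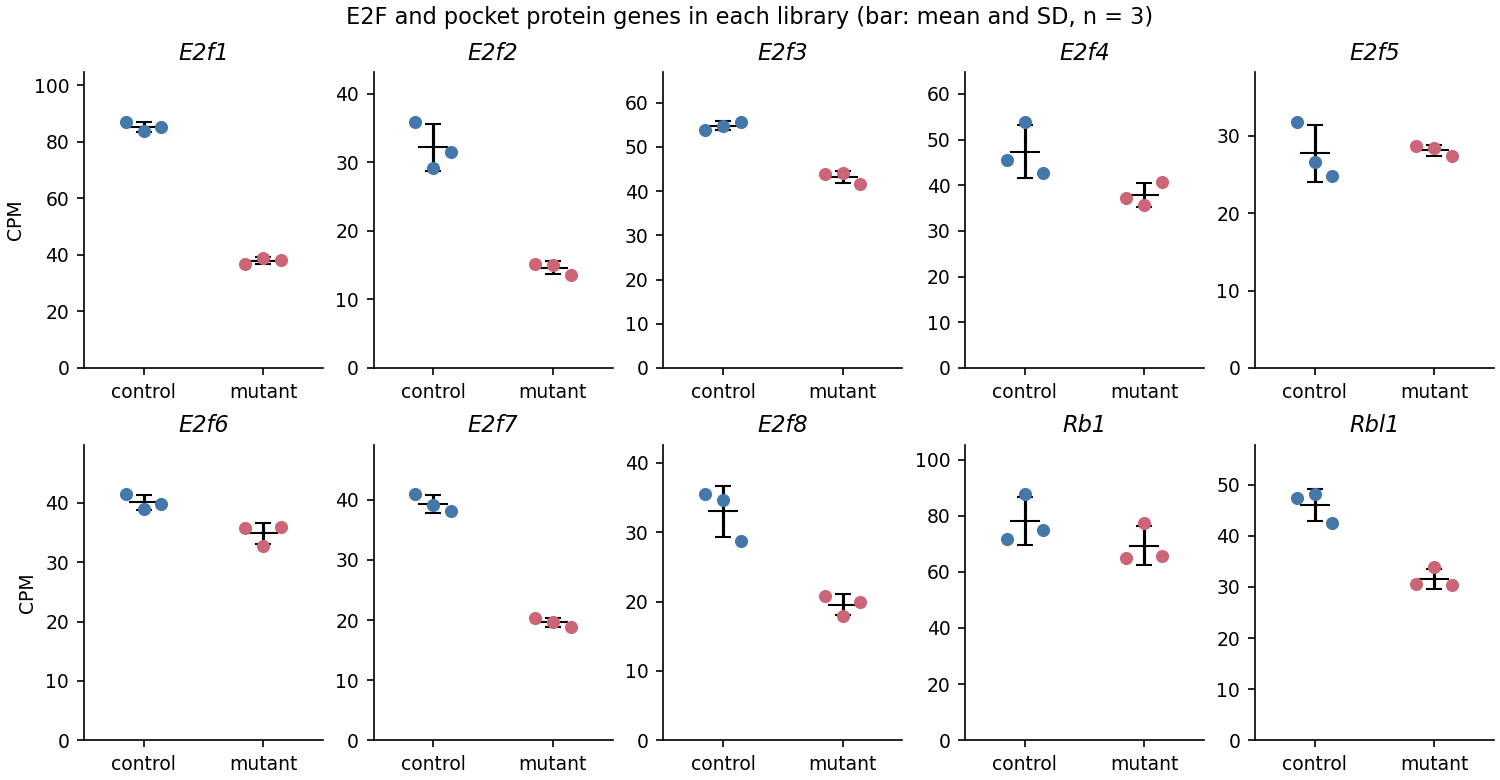
Level of each of the 10 family members in each library, in CPM on an axis that starts at 0 (points: the 3 control libraries in blue and the 3 mutant libraries in red; bar: mean and SD, n = 3). The groups are separate in 8 genes, most widely in *E2f1* at 85.4 against 37.9 CPM, and overlap in *E2f5* and *Rb1*.

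Several E2F genes are known to be E2F targets themselves, so promoters of members that fell are printed here beside that of *E2f6*, which did not pass the test. Promoter windows of 300 bases, 250 before and 50 after the RefSeq start on GRCm38.p6, were at hand for 7 members, and *E2f4*, *E2f5* and *Rb1* had none. The E2F core was searched on both strands in 4 spellings, namely TTCCCGC, the variant TTCGCGC, the variant TTGGCGC and the variant TTGCCGC. It was present in 9.57% of all 32851 windows, in 15.6% of windows of tested genes and in 26.8% of windows of downregulated genes. Among 34 windows of listed E2F target genes, 61.8% held it. The sequences below are the 250 bases before the start, 5′ to 3′ on the strand of the gene, with the E2F core in capitals.

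E2f7 (chr10:110745189-110745438, plus strand): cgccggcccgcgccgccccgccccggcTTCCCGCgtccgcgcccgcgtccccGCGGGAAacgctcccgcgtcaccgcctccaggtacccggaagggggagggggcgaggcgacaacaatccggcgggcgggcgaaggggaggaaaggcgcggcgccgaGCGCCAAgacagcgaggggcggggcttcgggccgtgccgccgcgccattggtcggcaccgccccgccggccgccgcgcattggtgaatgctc
E2f8 (chr7:48881597-48881846, minus strand): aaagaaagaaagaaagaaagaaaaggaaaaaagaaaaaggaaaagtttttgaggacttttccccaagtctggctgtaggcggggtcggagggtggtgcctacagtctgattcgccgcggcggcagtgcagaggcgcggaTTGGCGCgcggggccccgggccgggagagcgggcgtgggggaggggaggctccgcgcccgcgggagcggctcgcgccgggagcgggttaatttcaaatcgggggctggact
Rbl1 (chr2:157204535-157204784, minus strand): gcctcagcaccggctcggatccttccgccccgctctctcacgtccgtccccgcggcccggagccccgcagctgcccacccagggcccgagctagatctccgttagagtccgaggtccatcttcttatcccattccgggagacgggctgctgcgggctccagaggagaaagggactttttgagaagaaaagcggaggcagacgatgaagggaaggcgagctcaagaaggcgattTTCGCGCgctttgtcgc
E2f6 (chr12:16810715-16810964, plus strand): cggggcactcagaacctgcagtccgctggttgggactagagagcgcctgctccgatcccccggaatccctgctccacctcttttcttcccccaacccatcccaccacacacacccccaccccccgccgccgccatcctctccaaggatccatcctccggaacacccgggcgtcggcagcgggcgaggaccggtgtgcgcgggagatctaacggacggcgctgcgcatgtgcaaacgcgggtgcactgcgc

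The *E2f7* promoter held 3 matches, 2 of TTCCCGC in opposite orientations and 1 of TTGGCGC. The *E2f8* promoter held 1 match, which overlapped a CCAAT motif on the other strand, and the *Rbl1* promoter held 1 match at 17 bases before the start. The *E2f6* window held 0. Matches in the activator genes lay close to the start and are shown as 30 bases each, again with the core in capitals.

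E2f2 (chr4:136172294-136172323, plus strand): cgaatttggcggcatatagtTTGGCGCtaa
E2f3 upstream match (chr13:29986056-29986085, minus strand): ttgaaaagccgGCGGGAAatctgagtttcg
E2f3 downstream match (chr13:29986027-29986056, minus strand): gcgggaggaccTTGGCGCgtaaaccgtatc

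The 250 bases before the RefSeq start of *E2f2* held 0 matches, its match being after that start. This RefSeq start lay 120 bases before the *E2f2* gene model of the count table, and the match was also before that model. The further windows of *E2f2* and *E2f3* held 0 matches. The upstream sequences printed for members that fell are thus those with a match. The core was thus found in some windows of downregulated members and in 1 window of *E2f3*, which did not reach the fold threshold. Of the DP partner genes, *Tfdp1*, which was not downregulated, held 1 match in each of its windows. *Tfdp2*, which was downregulated, held 0 in its windows, which lay 62430 and 62973 bases inside its gene model. The window of *Rbl2*, the remaining pocket protein gene, which was not downregulated, held 0. A match gives letters in a window and was not tested as a binding site. The RefSeq window of *E2f1* lay inside the gene model of the count table, 466 bases from its start, and held 0 matches.

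Among the activators, *E2f1* and *E2f2* fell to 0.444 and 0.454 of their control level, and *E2f3* was lower by a smaller amount that did not reach the fold threshold. *E2f1*, the activator best known for driving S-phase entry (ENSMUSG00000027490, chromosome 2 from 154559407 to 154569892, minus strand), was counted at 87.2, 83.7 and 85.1 CPM in control libraries 1 to 3 and at 36.7, 39.0 and 38.1 CPM in mutant libraries 1 to 3. The groups were far apart, and the spread within each was small beside the gap. Its log2 fold change was −1.17 (SE 0.06, 95% interval −1.30 to −1.04; edgeR's quasi-likelihood test, adjusted p = 2.47e-06). *E2f2*, an activator with overlapping roles (ENSMUSG00000018983, chromosome 4 from 136172394 to 136196057, plus strand), was counted at 35.9, 29.2 and 31.5 CPM in the controls and at 15.2, 15.1 and 13.5 CPM in the mutants. Control 1 was the highest, and the mutant libraries lay close together below all controls. The log2 fold change was −1.14 (SE 0.10, interval −1.37 to −0.91; edgeR's quasi-likelihood test, adjusted p = 6.32e-05). *E2f3*, which encodes both a longer and a shorter isoform from different promoters (ENSMUSG00000016477, chromosome 13 from 29906575 to 29986063, minus strand), was counted at 53.8, 54.8 and 55.7 CPM and at 43.8, 44.1 and 41.6 CPM. All mutant libraries were again lower than all controls, by a smaller step. That was a log2 fold change of −0.34 (SE 0.06, interval −0.49 to −0.20; edgeR's quasi-likelihood test, adjusted p = 0.00363), past the p threshold and short of the fold threshold. Counts per gene do not separate the isoforms of *E2f3*.

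The canonical repressors did not pass. *E2f4*, the most abundant E2F of resting cells in many tissues (ENSMUSG00000014859, chromosome 8 from 105297663 to 105305370, plus strand), was counted at 45.6, 54.0 and 42.6 CPM in the controls and at 37.1, 35.7 and 40.8 CPM in the mutants. The groups did not overlap, but control 3 and mutant 3 were close. As a log2 fold change this was −0.32 (SE 0.10, interval −0.54 to −0.10; edgeR's quasi-likelihood test, adjusted p = 0.0379). *E2f5*, a partner of p130 with known roles in differentiating epithelia and the choroid plexus (ENSMUSG00000027552, chromosome 3 from 14578641 to 14606309, plus strand), was counted at 31.8, 26.6 and 24.8 CPM and at 28.7, 28.3 and 27.3 CPM. The mutant libraries fell inside the range of the controls. With a log2 fold change of 0.02 (SE 0.10, interval −0.20 to 0.25; edgeR's quasi-likelihood test, adjusted p = 0.899), a change beyond 0.5 in either direction lay outside the interval. *E2f6*, which lacks a pocket protein binding region and works with Polycomb proteins (ENSMUSG00000057469, chromosome 12 from 16810963 to 16839742, plus strand), was counted at 41.5, 39.0 and 39.8 CPM and at 35.8, 32.8 and 36.0 CPM. Each mutant library was somewhat below each control. The log2 fold change was −0.20 (SE 0.07, interval −0.37 to −0.04; edgeR's quasi-likelihood test, adjusted p = 0.0749).

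Both atypical repressors fell. *E2f7* (ENSMUSG00000020185, chromosome 10 from 110745439 to 110787384, plus strand), itself an E2F target that limits E2F1 activity late in S phase, was counted at 41.0, 39.1 and 38.1 CPM in the controls and at 20.3, 19.6 and 18.9 CPM in the mutants. The mutant level was about 0.498 of the control level, with little spread in either group. This gave a log2 fold change of −1.01 (SE 0.08, interval −1.18 to −0.83; edgeR's quasi-likelihood test, adjusted p = 2.66e-05). *E2f8*, its close relative (ENSMUSG00000046179, chromosome 7 from 48866429 to 48881596, minus strand), was counted at 35.5, 34.7 and 28.8 CPM and at 20.8, 17.9 and 19.9 CPM. Control 3 was the lowest control and was still above every mutant library. In the fit the log2 fold change was −0.76 (SE 0.10, interval −0.99 to −0.52; edgeR's quasi-likelihood test, adjusted p = 0.000728). It was called in 15 of 16 other fits. The printed promoters of both genes carried the E2F core, but promoters of members that fell were printed only where they held it.

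Of the pocket protein genes, *Rbl1* fell and *Rb1* did not pass the test. *Rbl1* encodes p107, a pocket protein that is made mostly in cycling cells (ENSMUSG00000027641, chromosome 2 from 157145893 to 157204534, minus strand). Its level was 47.3, 48.2 and 42.6 CPM in the controls and 30.6, 33.8 and 30.4 CPM in the mutants. The groups were separate. The log2 fold change of −0.54 (SE 0.08, interval −0.73 to −0.36; edgeR's quasi-likelihood test, adjusted p = 0.0012) lay just past the fold threshold, and 14 of 16 other fits called it. *Rb1*, the retinoblastoma gene (ENSMUSG00000022105, chromosome 14 from 73183673 to 73325822, minus strand), was counted at 71.7, 87.8 and 74.7 CPM and at 64.8, 77.4 and 65.8 CPM. Library 2 was the highest of either group, and mutant 2 lay above control 1 and control 3. The log2 fold change was −0.17 (SE 0.09, interval −0.38 to 0.03; edgeR's quasi-likelihood test, adjusted p = 0.205). The gene models of *Rb1* and *Rcbtb2*, on opposite strands, overlap by 24171 bases in the table, and those of *Rb1* and *Lpar6* by 5400 bases. How strand was treated in counting is not given in the sources used here, so reads shared by such genes cannot be told apart.

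**Figure D2:**
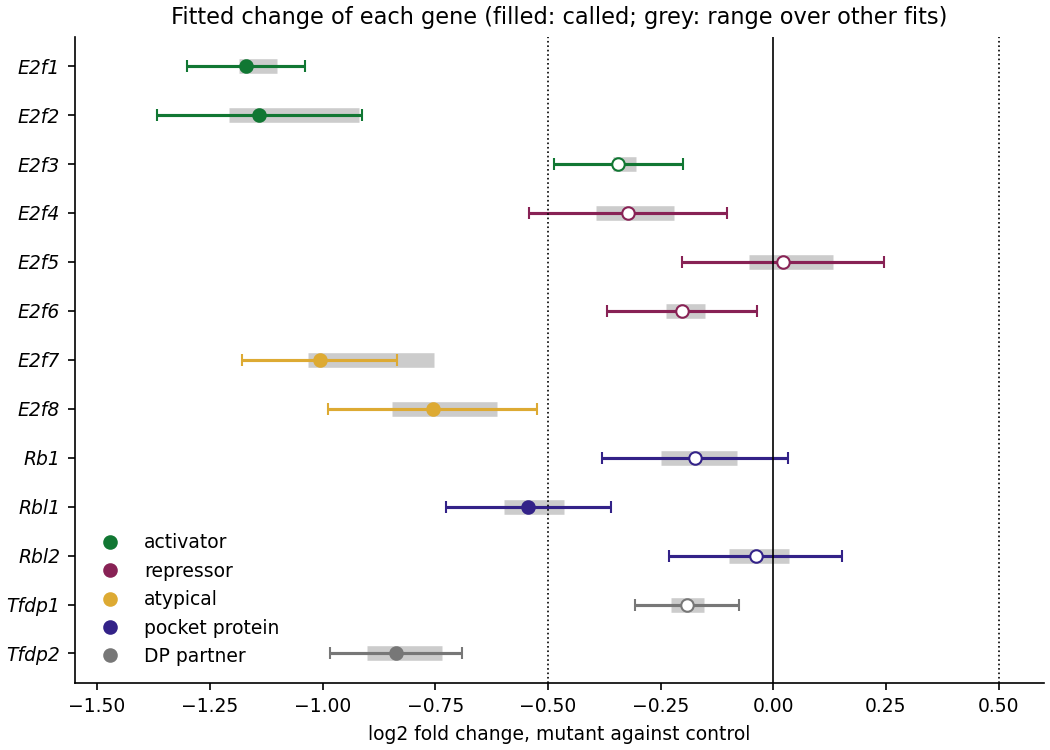
Log2 fold change, mutant against control, of the 10 members and of *Rbl2*, *Tfdp1* and *Tfdp2* (point and line: estimate and 95% interval from edgeR; filled point: called; grey band: range over 16 other fits; dotted lines: fold threshold of 0.5). Called genes lie at −0.54 or below, and the intervals of *E2f5*, *Rb1* and *Rbl2* span 0.

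The remaining pocket protein gene and the DP partners were read beside the members. *Rbl2*, which encodes p130, the pocket protein of resting cells, was counted at 38.7, 39.6 and 40.4 CPM in the controls and at 38.9, 42.2 and 34.4 CPM in the mutants. The groups overlapped, with a log2 fold change of −0.04 (SE 0.09, interval −0.23 to 0.15; edgeR's quasi-likelihood test, adjusted p = 0.777). *Tfdp2* fell, and *Tfdp1* did not reach either threshold. *Tfdp2*, a DP partner of the E2Fs, was counted at 143, 140.4 and 139 CPM and at 76.1, 87.0 and 73.6 CPM, with all mutant libraries far below the controls. As a log2 fold change this was −0.84 (SE 0.07; edgeR's quasi-likelihood test, adjusted p = 2.94e-05). *Tfdp1*, the other DP partner, was counted at 139.6, 126 and 132 CPM and at 117, 115 and 116 CPM. These groups were also separate, but the log2 fold change was only −0.19 (SE 0.05; edgeR's quasi-likelihood test, adjusted p = 0.0231).

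The activators were then set against the repressors. In each library, the mean log2 CPM of *E2f1*, *E2f2* and *E2f3* was compared with that of *E2f4* to *E2f8*. The difference was 0.51, 0.44 and 0.64 in the control libraries and 0.07, 0.19 and 0.03 in the mutant libraries. CPM is not divided by gene length, so only the shift between the groups is read from this difference, and it was lower in every mutant library than in every control library. The mean went from 0.53 ± 0.10 to 0.10 ± 0.09 (SD, n = 3), a shift of −0.43. No test was made of this score, because its members were chosen. Against the canonical repressors alone, the difference went from 0.51 ± 0.10 to −0.21 ± 0.09, a shift of −0.72. Against the atypical repressors alone, it was 0.56 ± 0.11 and 0.56 ± 0.09. The shift between activators and atypical repressors was thus within the spread of the libraries, while that between activators and canonical repressors left the groups separate. The activators did not move alike. The log2 fold change of *E2f3*, −0.34, was close to that of the canonical repressor *E2f4*, −0.32, and below those of *E2f6*, −0.20, and *E2f5*, 0.02.

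**Figure D3:**
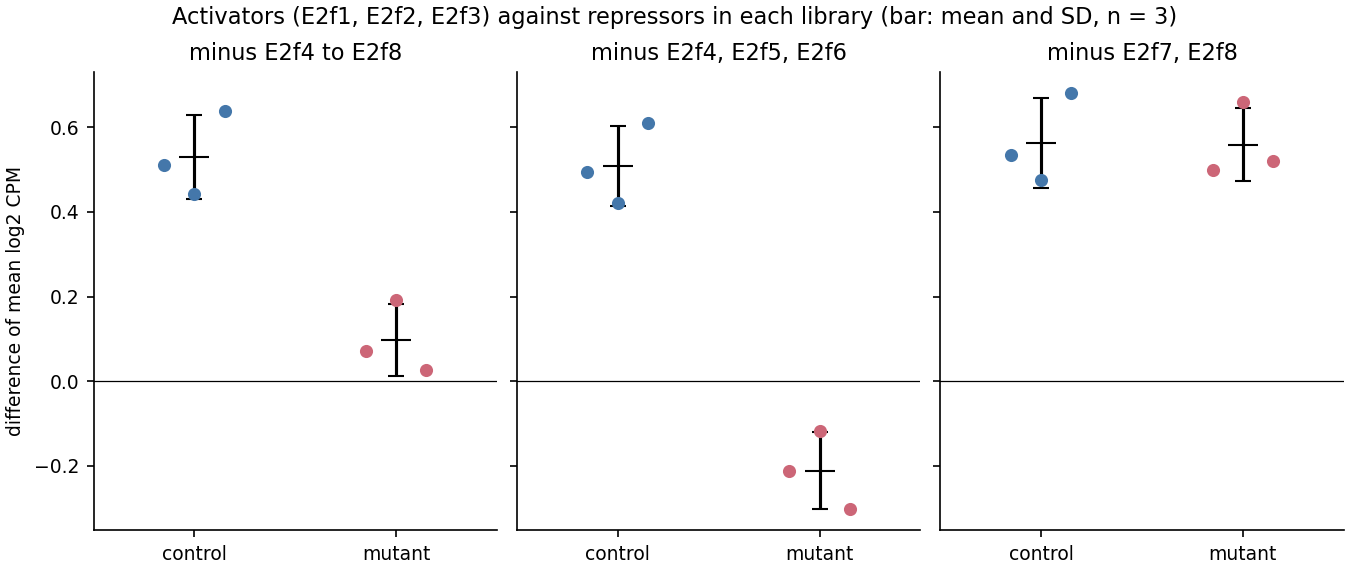
Mean log2 CPM of *E2f1*, *E2f2* and *E2f3* minus that of all repressors, of *E2f4*, *E2f5* and *E2f6*, or of *E2f7* and *E2f8*, in each library (points; bar: mean and SD, n = 3). The mutant libraries lie below the controls in the first and the middle panel, at means of 0.10 and −0.21, and overlap with them in the last.

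Ranked per length, the order of the members differed between the groups. In the controls *E2f1* stood first at 26.8 ± 0.538 FPKM, clear of *E2f4* at 19.2 ± 2.39 FPKM (SD, n = 3). *E2f5* at 15.4 FPKM and *Rb1* at 12.9 FPKM came next, and the ranges of neighbours from *E2f4* to *Rb1* overlapped. *E2f3* stood alone, between 9.82 and 10.2 FPKM. It was followed by *Rbl1* at 7.61, *E2f6* at 7.02, *E2f2* at 6.53 and *E2f8* at 6.01 FPKM, whose neighbours did not differ beyond their spread. *E2f7* was last at 4.33 FPKM. In the mutants *E2f5* at 15.7 ± 0.394 FPKM and *E2f4* at 15.4 ± 1.12 FPKM stood first and overlapped, above *E2f1* at 11.6 to 12.2 FPKM, which overlapped *Rb1* at 11.5 FPKM. From *E2f3* at 7.91 FPKM down through *E2f6*, *Rbl1*, *E2f8* and *E2f2* to *E2f7* at 2.16 FPKM, no neighbours overlapped.

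The summed FPKM of the 8 E2f genes was 95.3 ± 4.14 in the controls and 65.8 ± 1.05 in the mutants. *E2f1* made up 28.2% ± 1.15 of the control sum and 18.2% ± 0.729 of the mutant sum. The activators together held 45.5% ± 1.99 against 34.7% ± 1.21, and the atypical repressors 10.8% ± 0.392 against 8.71% ± 0.392. Within the activators, the share of *E2f2* also fell, from 6.86% ± 0.633 to 4.52% ± 0.317. The share of *E2f3* went the other way, at 9.94% to 11.2% in the controls and 11.5% to 12.4% in the mutants. The lower activator share was thus that of *E2f1* and *E2f2*. The share of *E2f4*, *E2f5* and *E2f6* was 43.6% ± 1.63 in the controls and 56.5% ± 1.02 in the mutants. Their summed FPKM was 41.6 ± 3.12 and 37.2 ± 1.23, so the larger share did not come with a higher level. For the activators the sum was 43.4 ± 1.12 and 22.9 ± 0.434 FPKM, close to that of the canonical repressors in the controls and below it in every mutant library. These shares sum to a whole and are given as a description.

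**Figure D4:**
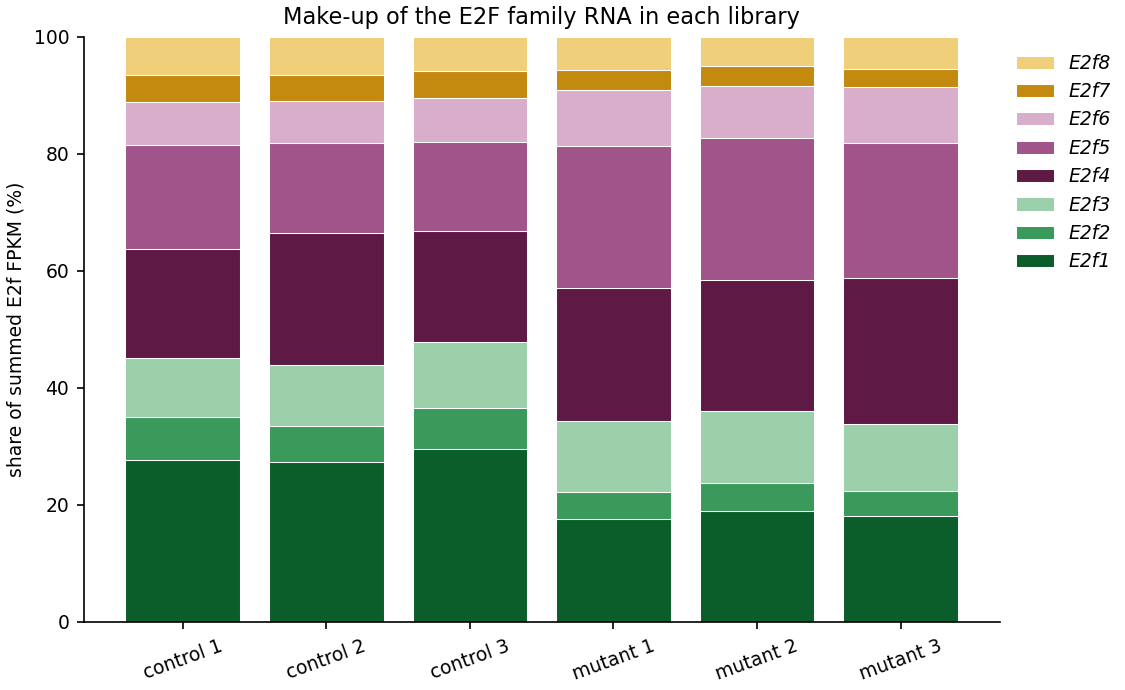
Share of each E2f gene in the summed FPKM of the 8 E2f genes, in percent, in each of the 6 libraries (stacked bars; greens: activators, purples: canonical repressors, yellows: atypical repressors). The green part is 45.5% of the bar on average in the controls and 34.7% in the mutants, and the purple part 43.6% and 56.5%.

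Ratios of CPM between genes of the same library, read only for their shift between the groups, were compared with an exact two-sided permutation test over libraries. With 3 libraries against 3 this test cannot give a p under 0.1, and 14 ratios were tested. The log2 ratio of *E2f1* to *E2f4* was 0.86 ± 0.20 in the controls and 0.00 ± 0.11 in the mutants, and the groups were separate (exact permutation p = 0.1, adjusted p = 0.2). That of *E2f1* to *Rb1* was 0.13 ± 0.18 and −0.86 ± 0.11, also separate (exact permutation p = 0.1, adjusted p = 0.2). *Rbl1* to *Rbl2* gave 0.22 ± 0.12 and −0.28 ± 0.09, and *Tfdp2* to *Tfdp1* gave 0.09 ± 0.06 and −0.56 ± 0.14, with the same exact permutation p. In each of these 4 pairs, the ratio was lower in every mutant library than in every control library.

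Markers of dividing cells and of the granule lineage moved with the family. The calls below stand beside 3.63% of all genes tested downregulated and 3.03% upregulated. Of 6 markers of cycling cells, including *Mki67* and *Top2a*, 6 were downregulated, and their summed level was 863 to 1052 CPM in the controls and 452 to 542 CPM in the mutants. Of 6 GNP markers, 5 were downregulated (2323 to 2399 against 1520 to 1607 CPM), among them *Atoh1*, the transcription factor that keeps GNPs immature, at 31.8 ± 0.873 against 0.362 ± 0.186 CPM. Of 6 markers of the granule lineage and of young granule neurons, 5 were downregulated (1291 to 1389 against 694 to 740.3 CPM). They include *Pax6*, which is not limited to neurons that have stopped dividing. In turn 4 of 6 Purkinje cell markers, 2 of 6 glial markers, 3 of 6 meningeal and 1 of 6 microglial markers were upregulated, the last a call that was lost without control 1, control 2, mutant 1 or mutant 3. Without control 3, 1 glial marker was upregulated. Of the Purkinje calls, 1 was made in only 8 of 16 other fits, and of the GNP calls, 1 was made in 11 of 16. Choroid plexus markers summed to between 131 and 199 CPM in the controls and to 221, 35.0 and 776 CPM in mutants 1 to 3, with 1 of 6 downregulated, while 0 of 6 endothelial and 0 of 5 tested erythroid markers were called by edgeR or by DESeq2, with 2 and 0 at an unadjusted p under 0.05. No marker in these lists was at 0 in all libraries. Their part in the differences of the E2F and Rb family was not tested.

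The members that fell were also set against the markers of cycling cells in the same library. Against the mean log2 CPM of the 6 markers, *E2f1* was lower in every mutant library than in every control library, at −0.60 ± 0.03 against −0.32 ± 0.10 (exact permutation p = 0.1, adjusted p = 0.2). *Rbl1* was higher in every mutant library, at −0.87 ± 0.04 against −1.21 ± 0.10 (exact permutation p = 0.1, adjusted p = 0.2). The groups overlapped for *E2f2*, *E2f7* and *E2f8*, with shifts of −0.25, −0.12 and 0.13 (exact permutation p = 0.2, 0.2 and 0.4). With *Mki67*, which encodes the proliferation antigen Ki-67, as the only marker, the picture differed. The log2 ratio of *E2f1* to *Mki67* was −2.25 ± 0.32 in the controls and −2.16 ± 0.31 in the mutants (exact permutation p = 0.7, adjusted p = 0.7). *Mki67* had the largest fold change of the 6 markers, at −1.25 on the log2 scale, while the other 5 lay between −0.92 and −0.72. It also varied widely between libraries, at 330.2, 496 and 410.4 CPM in the controls and 154, 221 and 144 CPM in the mutants. For *E2f2*, *E2f7* and *E2f8* the mean ratio to *Mki67* was higher in the mutants by 0.12, 0.25 and 0.51 (exact permutation p = 0.7, 0.3 and 0.2), and for *Rbl1* it was higher by 0.72 with separate groups (exact permutation p = 0.1, adjusted p = 0.2).

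Upstream of the pocket proteins, the genes of the G1 cyclins, their kinases and the inhibitors of these kinases were read as a list of 15, of which 14 were tested and *Cdkn2a* was too low. Of the 14, 5 were downregulated and 1 upregulated (3.63% and 3.03% of all genes tested), and the median log2 fold change was −0.39. *Ccnd1*, which encodes cyclin D1, the cyclin that starts phosphorylation of Rb, went from 162 ± 2.47 to 78.3 ± 4.34 CPM, a log2 fold change of −1.05 (SE 0.05; edgeR's quasi-likelihood test, adjusted p = 3.01e-06). *Ccnd2*, which encodes cyclin D2, went from 382 ± 19.6 to 213 ± 14.2 CPM (log2 fold change −0.84; edgeR's quasi-likelihood test, adjusted p = 1.87e-05). The other downregulated genes were *Cdk6*, a partner kinase of the D cyclins, *Ccne2*, which encodes cyclin E2, and *Cdkn1b*. *Cdkn1b*, which encodes the kinase inhibitor p27, fell from 126 ± 2.62 to 73.9 ± 0.636 CPM (log2 fold change −0.77; edgeR's quasi-likelihood test, adjusted p = 8.27e-06). The D cyclins did not all move one way, since *Ccnd3*, which encodes cyclin D3, was counted at 33.1 CPM in the controls and 41.4 CPM in the mutants with separate groups (log2 fold change 0.32; edgeR's quasi-likelihood test, adjusted p = 0.00861), short of the fold threshold. *Cdkn1c*, which encodes the inhibitor p57, rose from 87.5 ± 5.47 to 126 ± 7.05 CPM (log2 fold change 0.52; edgeR's quasi-likelihood test, adjusted p = 0.00038), just past the fold threshold. Without control 1 or without mutant 1 it was at 0.47 and was not called. The call of *Ccne2*, at −0.67 in the fit to all libraries, was lost when any of control 1, control 2, mutant 1 or mutant 3 was left out, at −0.56 to −0.67.

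Downstream, 40 textbook targets of the E2Fs in DNA replication and the cell cycle were read, a list chosen with earlier results of these data known. All 40 had a log2 fold change below 0, and 26 were downregulated and 0 upregulated (3.63% and 3.03% of all genes tested). In 38 every mutant library lay below every control library (20.1% of all genes tested). At an unadjusted p under 0.05, 38 were lower and 0 higher (19.0% and 18.2% of all genes tested), and DESeq2 called 25 of them lower and 0 higher. The median log2 fold change was −0.65, below that of the family. *Uhrf1*, which couples DNA methylation to replication, went from 149.8 ± 2.99 to 84.1 ± 1.05 CPM, a log2 fold change of −0.83 (SE 0.05; edgeR's quasi-likelihood test, adjusted p = 4.84e-06). *Mcm6* and *Mcm3*, subunits of the replicative helicase, had log2 fold changes of −0.82 and −0.77. The smallest log2 fold change of the list, −0.15, was that of *Ccne1*, which encodes cyclin E1 and whose groups overlapped (edgeR's quasi-likelihood test, adjusted p = 0.268). *Ccne1* and *Ccne2* belong to the cyclin list as well, and *Mybl2* to the MuvB list.

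Of 7 targets of E2F1 in cell death, 1 was downregulated and 0 upregulated (3.63% and 3.03% of all genes tested), with a median of −0.17. At an unadjusted p under 0.05, 3 were lower and 2 higher, where 19.0% and 18.2% of all genes tested were, and DESeq2 called 1 and 0. *Pmaip1*, which encodes the BH3-only protein Noxa, fell from 5.76 ± 0.607 to 1.73 ± 0.330 CPM (log2 fold change −1.73, SE 0.21; edgeR's quasi-likelihood test, adjusted p = 0.000363). *Bbc3*, which encodes the related protein Puma, stood at 16.5 ± 0.946 and 21.1 ± 1.40 CPM (edgeR's quasi-likelihood test, adjusted p = 0.0197). The cell death list was therefore mixed in direction, with 4 members lower and 3 higher, where the replication list was not.

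The complexes through which E2Fs and pocket proteins act were read next. The MuvB core assembles with p130 or p107 and E2F4 into the DREAM repressor in resting cells, and with B-Myb and FoxM1 in dividing cells. Of 7 genes of this group, 3 were downregulated and 0 upregulated (3.63% and 3.03% of all genes tested), with a median of −0.41. These were *Foxm1* (log2 fold change −0.59), *Lin9* (−0.64) and *Mybl2* (−0.54), that is, both factors of dividing cells and 1 core subunit. Under an unadjusted p of 0.05, 5 of the 7 were lower and 0 higher (19.0% and 18.2% of all genes tested), and DESeq2 called 3 lower and 0 higher. *Mybl2* lay near the fold threshold, at −0.49 without control 2 and −0.48 without mutant 3, and 11 of 16 other fits called it. *Lin9* was called in 13 of 16 other fits and not in the 3 fits to FPKM, where its adjusted p by limma was 0.0121 to 0.0328. *Lin37* and *Lin52*, other core subunits, had log2 fold changes of 0.01 and 0.08, and their groups overlapped.

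Of 10 partners of E2f6 in the Polycomb complex PRC1.6, 0 were downregulated and 0 upregulated by edgeR (3.63% and 3.03% of all genes tested). DESeq2 also called 0 lower and 0 higher. At an unadjusted p under 0.05, 6 were lower and 0 higher (19.0% and 18.2% of all genes tested), and in 5 the mutant libraries lay below all controls (20.1% of all genes tested). The median was −0.18. *Mga*, the scaffold of this complex, had a log2 fold change of −0.54 with overlapping groups, and reached −0.85 and a call without mutant 2 (edgeR's quasi-likelihood test, adjusted p = 0.126 with all libraries and 0.00848 without it). It was also called with no filter on low counts, at −0.54 (edgeR's quasi-likelihood test, adjusted p = 6.5e-08). The fit with sex as a covariate did not call it. *Mga* was at 77.1, 138 and 119 CPM in controls 1 to 3 and at 58.3, 106 and 65.0 CPM in mutants 1 to 3. Control 2, control 3 and mutant 2, where it was highest in each group, were the libraries without Y-chromosome reads or nearly so. *Mki67* was highest in these libraries too, and the cause of the spread of *Mga* was not tested. *Rnf2*, a ubiquitin ligase of Polycomb complexes, *Wdr5* and *Pcgf6* had the smallest p of this list, with log2 fold changes of −0.30, −0.32 and −0.34. Of 10 co-repressors recruited by pocket proteins, 1 was downregulated and 0 upregulated (3.63% and 3.03% of all genes tested), with a median of −0.31. It was *Ezh2*, the methyltransferase of Polycomb complex PRC2, at 70.7 ± 3.23 against 47.0 ± 6.21 CPM (log2 fold change −0.59; edgeR's quasi-likelihood test, adjusted p = 0.00137). The 3 fits to FPKM did not call it. Under an unadjusted p of 0.05, 6 co-repressors were lower and 0 higher (19.0% and 18.2% of all genes tested), and DESeq2 called 1 lower and 0 higher. *Dnmt1* and *Sin3a* had log2 fold changes of −0.39 and −0.41, short of the fold threshold.

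Factors that degrade or bind E2Fs and cyclins included 3 downregulated of 6 and 0 upregulated (3.63% and 3.03% of all genes tested), with a median of −0.42. Under an unadjusted p of 0.05, 5 were lower and 0 higher (19.0% and 18.2% of all genes tested), and DESeq2 called 3 and 0. *Cdc20*, an activator of the anaphase-promoting complex, fell from 63.6 ± 3.20 to 35.4 ± 0.904 CPM (log2 fold change −0.84; edgeR's quasi-likelihood test, adjusted p = 3.57e-05). *Ccnf*, which encodes cyclin F, a ubiquitin ligase subunit that targets activator E2Fs, had a log2 fold change of −0.93, and *Skp2*, which targets p27 for degradation, of −0.58. Without mutant 3, *Skp2* was at −0.55 and was not called (edgeR's quasi-likelihood test, adjusted p = 0.0112). *Fzr1* and *Ambra1*, other ubiquitin ligase factors of the list, had log2 fold changes of −0.14 and −0.03 and did not pass.

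*E2f4* and *E2f5* also act with Gmnc and Mcidas in the program of multiciliated cells, such as those of the choroid plexus and ependyma. Of 7 genes of this program, 1 was upregulated and 0 downregulated (3.03% and 3.63% of all genes tested), with a median of 0.63. At an unadjusted p under 0.05, 3 were higher and 1 lower (18.2% and 19.0% of all genes tested), and DESeq2 called 1 higher and 0 lower. *Foxj1*, a regulator of motile cilia, rose from 33.0 ± 4.89 to 62.3 ± 4.31 CPM (log2 fold change 0.91, SE 0.11; edgeR's quasi-likelihood test, adjusted p = 0.000288). *Mcidas* stood at 2.44 ± 0.560 and 4.29 ± 0.516 CPM, and *Deup1* lay between 4.24 and 5.60 CPM and between 7.35 and 8.31 CPM, and neither passed. *E2f4* and *E2f5* were not higher with them. Choroid plexus markers varied between mutant libraries as given above, with mutant 2 the lowest. *Foxj1* was at 57.3, 65.2 and 64.3 CPM in mutants 1 to 3. The part of choroid plexus tissue in the values of this program was not tested.

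**Figure D5:**
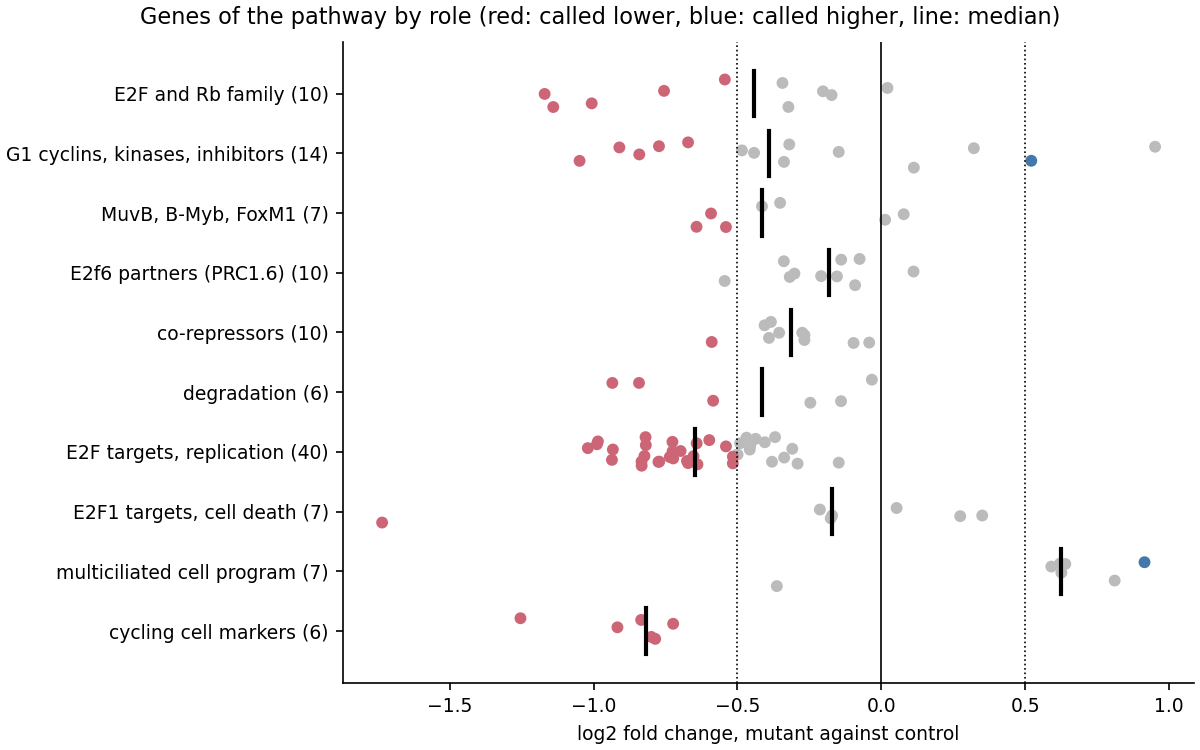
Log2 fold change, mutant against control, of each tested gene of the family and of the lists around it (points; red: downregulated, blue: upregulated, grey: not called; black line: median of the list; number of genes tested in brackets; vertical jitter carries no meaning). Among the lists plotted, which leave out the other cell type markers, the medians run from −0.82 for cycling cell markers and −0.65 for E2F targets to 0.63 for the multiciliated cell program, with −0.44 for the family.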

How the data were processed

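Poly(A)-selected RNA of the cerebellum at postnatal day 1 was measured in 6 libraries. Per the labels and the study's methods, the authors aligned reads to mm10 with HISAT2 2.0.5, counted them per gene with featureCounts 1.5.0-p3 and deposited the raw counts. The authors also deposited FPKM values, made from counts and gene length. The annotation release and strand setting are not given in the sources used here.

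The quasi-likelihood test of edgeR 4.0.16, run in R 4.3.3, compared the counts of 3 mutant and 3 control libraries after filterByExpr and TMM, with no covariate, over 17505 genes. Tested genes held 99.8% of the counts. A call needed a Benjamini-Hochberg adjusted p under 0.01 with a log2 fold change of more than 0.5 in size, as in the study's methods. The test was checked on simulated data. Alternatives were DESeq2 1.42.0, other normalizations, filters and thresholds, the replicate number as a block, sex from Y-chromosome genes as a covariate, each library left out, and limma 3.58.1 on log2(FPKM + 1) and log2(FPKM + 0.1). Libraries of a group differed by more than sampling noise (chi-square per gene 3.63 to 10.0), so none was a copy. Total counts limit precision as given in the report.

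The members and gene lists were chosen with earlier results of these data known. Besides the members, *Rbl2*, *Tfdp1* and *Tfdp2*, up to 3 genes with the smallest p of a list and genes called against its majority were named, and *Tox3* and *Atoh1* where needed. *Cdk6*, *Ccnd3*, *Ccne1*, *Ccne2*, *Lin37*, *Lin52*, *Fzr1*, *Ambra1*, *Mga* and *Mki67* were named after their values were seen. The values of 1 gene that this rule names are not reported here.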

Additional observations from a re-analysis of the deposited data

How the results depend on the processing

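The same 5 members were downregulated in 14 of 16 other fits, and 0 were upregulated in any. limma-trend on log2(FPKM + 1) called 4, without *Rbl1*, and with no filter on low values it called 3 (*E2f1*, *E2f2* and *E2f7*) and 17 E2F targets, and both called 1 MuvB gene. The numbers of all tested genes lower and higher were 360 and 243 with log2(FPKM + 1), 286 and 176 with no filter, and 416 and 297 with log2(FPKM + 0.1). The cause of these differences was not tested. With no fold threshold, 2252 genes were lower and 2136 higher at an adjusted p under 0.05, and 1268 and 1147 at 0.01, where 7 and 6 members were lower (*E2f3* in both, *E2f4* in the first). Leaving out each library in turn gave 5 members, 22 to 27 E2F targets, and 349 to 569 genes higher over all genes, the fewest without mutant 3. The mean fold of activators minus repressors lay between −0.48 and −0.38 in all 16 fits. Same-numbered libraries deviated with correlations of 0.26, 0.30 and −0.16, and not every library correlated best with its own number. Pairs of control and mutant libraries alike in Y-chromosome reads had correlations of 0.23 to 0.30, and unlike pairs −0.44 to −0.12. Control 3 and mutant 3 were such an unlike pair, so these correlations cannot decide whether the numbers pair the samples. With the replicate block, 5 members, 27 E2F targets, 696 genes lower and 561 higher were called, and *Mga* was called at −0.55 (edgeR's quasi-likelihood test, adjusted p = 0.00161). No direction of a called member reversed in any fit. Depth limits only the low genes: *Cdkn2a* was too low to test, and *Mcidas* was under 5 CPM in every library.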
